A study of Rattus norvegicus with 35 samples.

Results

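The 9 rod phototransduction genes Gnat1, Gngt1, Pde6a, Pde6b, Pde6g, Cnga1, Slc24a1, Grk1 and Sag were followed in rat retina after intraorbital injury of the optic nerve. They were chosen by gene symbol, as genes of the rod light response, and are 9 of the 14217 genes that the arrays measured with at least 1 probe set of a single symbol. Each of the 9 had 1 such probe set, so there was no choice between probe sets, and all 9 passed a filter on low values. Signals are log2 values per probe set, in which a difference of 1 is a doubling, and they are compared between groups for 1 gene at a time, since the signals of different probe sets are not on a common scale.

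Retinas came from adult female Sprague-Dawley rats, and the RNA on each of the 35 arrays was a pool of 4 retinas, each from another animal. In intraorbital nerve crush (IONC) the left optic nerve was crushed within the orbit, and 15 arrays covered 5 times between 12 h and 7 d, with 3 arrays at each time. In intraorbital nerve transection (IONT) the nerve was cut there, and another 15 arrays covered 6 times, with 3 arrays at 12 h, 48 h and 7 d but 2 at 24 h, 3 d and 15 d. The 5 naive arrays held retinas of rats with no operation. Both lesions injure the axons of the retinal ganglion cells, and p-values measure the spread between RNA pools within a group.

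Rods hold nearly all of the light-sensing machinery of the rat retina in a stack of membrane discs. Light turns on rhodopsin, rhodopsin turns on the G protein transducin, and transducin releases phosphodiesterase 6, which breaks down cGMP so that cGMP-gated cation channels close. Rhodopsin kinase and arrestin then shut rhodopsin off, while a sodium-calcium exchanger goes on removing calcium from the outer segment.

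RefSeq promoters of the GRCr8 rat assembly, 250 bases before to 50 bases after the gene start, were matched by gene number to 6 of the 9 genes (Gngt1, Pde6a, Pde6b, Cnga1, Sag and Slc24a1). They were searched on both strands, without overlap between the motifs, for TAATCC, the core recognised by the photoreceptor factor CRX, and for TGCTGA, a half-site of the rod factor NRL. TAATCC was present in 7.17% of all 33469 promoters and in 2 of the 6, and TGCTGA in 18.4% of all promoters and in 2 of the 6. The promoters of Pde6b and Pde6a are shown because they are the partner subunits of rod phosphodiesterase and only the first was called lower after injury. Capitals mark the motif, and each match is a description of letters and not of binding.
Pde6b (chr14:1511386-1511685, minus strand): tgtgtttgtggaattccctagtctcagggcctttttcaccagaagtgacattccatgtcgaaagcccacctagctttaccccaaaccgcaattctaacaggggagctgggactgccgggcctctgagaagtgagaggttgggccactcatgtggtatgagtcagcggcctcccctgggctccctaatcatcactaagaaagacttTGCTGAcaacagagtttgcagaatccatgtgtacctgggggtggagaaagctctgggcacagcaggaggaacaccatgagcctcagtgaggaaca
Pde6a (chr18:56946999-56947298, plus strand): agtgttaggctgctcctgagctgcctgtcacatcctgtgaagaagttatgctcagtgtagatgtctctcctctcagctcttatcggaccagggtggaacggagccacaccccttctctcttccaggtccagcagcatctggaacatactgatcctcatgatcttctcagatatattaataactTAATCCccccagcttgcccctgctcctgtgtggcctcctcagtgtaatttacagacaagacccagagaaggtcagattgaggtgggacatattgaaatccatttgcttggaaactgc
TGCTGA began 45 bases before the Pde6b start and 131 bases before the Sag start. TAATCC began 67 bases before the Pde6a start, and its reverse complement GGATTA 220 bases before the Gngt1 start. Neither was in the windows of Cnga1 and Slc24a1.

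Each injured group was set against naive arrays in 1 linear model with limma over 31042 probe sets. A gene counted as called when its adjusted p was below 0.01, its B statistic, the log odds of a change, was positive, and it had moved 1.2-fold or more. The arrays fell into 2 sets by their β-actin controls, whose 3′ minus 5′ log2 difference was 2.61 to 3.65 on 8 arrays (array set 2, with IONT 24 h, 3 d and 15 d and naive replicates 4 and 5) and 1.53 to 1.93 on the other 27 (array set 1). The 3 IONT groups of array set 2 were therefore compared with naive replicates 4 and 5, and the other 8 injured groups with all 5 naive arrays. The naive arrays of the 2 sets had separate means in the model. The SE and p against all 5 naive arrays therefore leave out the difference between these means. Calls of the 9 genes that depend on this choice are also given against naive replicates 1 to 3. Transection was made nearer the optic disc than crush, so the type of lesion and its distance from the eye cannot be told apart. One array, IONC 12 h replicate 2, was unlike the rest, since its correlations with them had a median of 0.871, while this median was 0.962 to 0.992 for every other array. In bulk retina, fewer rods and less RNA per rod cannot be told apart.

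Transcripts of 5 of the 9 rod transduction genes fell at 12 h to 48 h after the lesions, and at 7 d 1 of the 9 was called lower after IONC and 0 after IONT. After IONC, 5 of 9 were called lower at 12 h (5.86% of all probe sets were called lower), 2 at 24 h (2.34%) and 2 at 48 h (2.49%). None was called at 3 d after IONC (0 of 9, 2.24%), and 1 of 9 was at 7 d (2.18%). After IONT, 4 of 9 were called lower at 12 h (2.11% of all probe sets), 0 at 24 h (0.219%), 5 at 48 h (2.96%), 1 at 3 d (0.296%), 0 at 7 d (2.62%) and 0 at 15 d (0.341%). None was called higher than naive at any time. The comparisons of IONT 24 h, 3 d and 15 d set 2 arrays against 2, with wider errors (SE 0.10 to 0.27 at IONT 24 h, against 0.08 to 0.19 at IONC 12 h), so a count of 0 there does not show that the genes did not change. Gnat1, Grk1, Slc24a1, Pde6b and Cnga1 were each called at 1 time or more after either lesion, in comparisons that share their naive arrays. Gngt1, Pde6a, Pde6g and Sag were never called. Against naive replicates 1 to 3 alone, 5 genes were called lower at IONC 12 h (3.29% of all probe sets), 3 at IONT 12 h (0.49%) and 4 at IONT 48 h (1.32%).

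**Figure D1:**
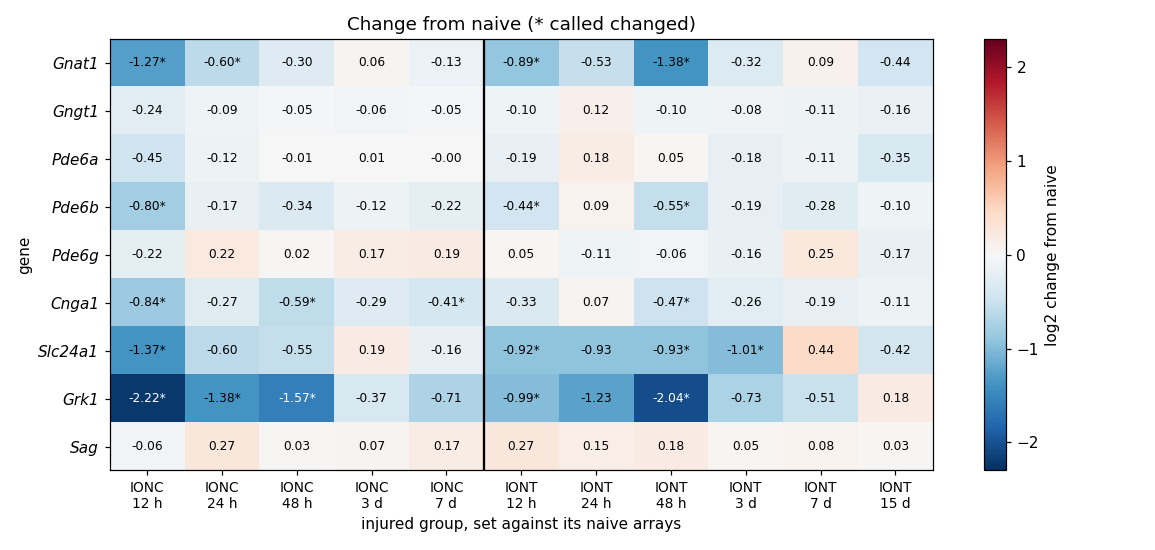
Log2 change from naive of the 9 genes (down) in the 11 injured groups (across, IONC left of the line and IONT right of it), with blue for lower than naive and an asterisk for a called change. The 2.22 and 2.04 log2 falls of Grk1 at IONC 12 h and IONT 48 h are the largest shown, and the rows of Gngt1, Pde6a, Pde6g and Sag carry no asterisk.

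At IONC 12 h all 3 arrays lay below all 5 naive arrays for 6 of the 9 genes (8.24% of all probe sets). This share of all probe sets was 6.62% to 10% in the other groups set against 5 naive arrays. Against naive replicates 4 and 5 it was 23.6% at IONT 24 h, 37.2% at IONT 3 d and 42.1% at IONT 15 d. The median change of the 9 genes was -0.80 at IONC 12 h and -0.47 at IONT 48 h, while the median over all probe sets lay between -0.04 and 0.07 in all 11 comparisons. At IONT 12 h it was -0.33, at IONC 48 h -0.30 and at IONC 24 h -0.17. The remaining medians lay between -0.19 (IONT 3 d) and 0.07 (IONT 24 h). At IONC 12 h all 9 changes were below 0, from -2.22 for Grk1 to -0.06 for Sag, but without IONC 12 h replicate 2 that of Sag was 0.10 and that of Gngt1 -0.02.

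Transducin is the G protein of the rod. Gnat1, its alpha subunit, which binds GTP and activates the phosphodiesterase, fell after both lesions. Its signals were 13.06, 13.17 and 12.99 at 12 h after IONC, 13.27, 13.53 and 13.56 at 12 h after IONT, and 13.19, 12.74 and 12.98 at 48 h after IONT, against 14.29 to 14.42 in the 5 naive arrays. All 9 injured arrays lay below the lowest naive array. The log2 change was -1.27 ± 0.09 (SE) at IONC 12 h, a 2.41-fold lower level (adjusted p = 1.51e-09). It was -0.89 ± 0.09 at IONT 12 h (adjusted p = 5.65e-07) and -1.38 ± 0.09 at IONT 48 h, 2.6-fold lower (adjusted p = 4.03e-10).

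The later course of Gnat1 differed between the lesions. At 24 h after IONC it had 13.84, 13.61 and 13.77, still below every naive array (change -0.60, adjusted p = 0.00012), and at 48 h 13.88, 14.20 and 14.05 (-0.30, adjusted p = 0.0408, not called). At 3 d and 7 d after IONC the arrays ranged from 14.10 to 14.43 and overlapped the naive arrays, and neither change was called (0.06 and -0.13). After IONT the 7 d arrays, at 14.32, 14.49 and 14.50, overlapped the naive arrays (change 0.09, adjusted p = 0.568). The other IONT groups were lower without a call, at 13.87 and 13.64 at 24 h (-0.53, adjusted p = 0.0255), 13.91 and 14.03 at 3 d (-0.32, adjusted p = 0.28) and 13.87 and 13.84 at 15 d (-0.44, adjusted p = 0.0589). All 6 of those arrays lay below the 5 naive arrays. In these groups 23.6%, 37.2% and 42.1% of all probe sets lay below naive replicates 4 and 5, so such a gap was common. With IONC 12 h replicate 2 left out, the 24 h IONT change of Gnat1 was called (-0.53, adjusted p = 0.00994).

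Gngt1, the gamma subunit of rod transducin, was not called in any comparison with naive. Its arrays lay at 15.55, 14.88 and 15.56 at IONC 12 h and at 15.51, 15.44 and 15.48 at IONT 48 h, against 15.45 to 15.70 in naive retinas. Of these 6 arrays only IONC 12 h replicate 2 and IONT 48 h replicate 2 were below the naive range. The 11 changes ran from -0.24 (IONC 12 h, adjusted p = 0.0447) to 0.12 (IONT 24 h), and the 95% interval at IONT 48 h was -0.30 to 0.09. It gave the brightest signal of all probe sets on all 35 arrays and held 1 identical value, 15.51, on 5 of them, so how far its narrow range is set by the scale was not tested. Under a cyclic loess normalization between arrays, Gngt1 was called lower, with changes of -0.31 at IONC 12 h, -0.28 at IONC 24 h, -0.32 at IONT 48 h and -0.35 at IONT 7 d.

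**Figure D2:**
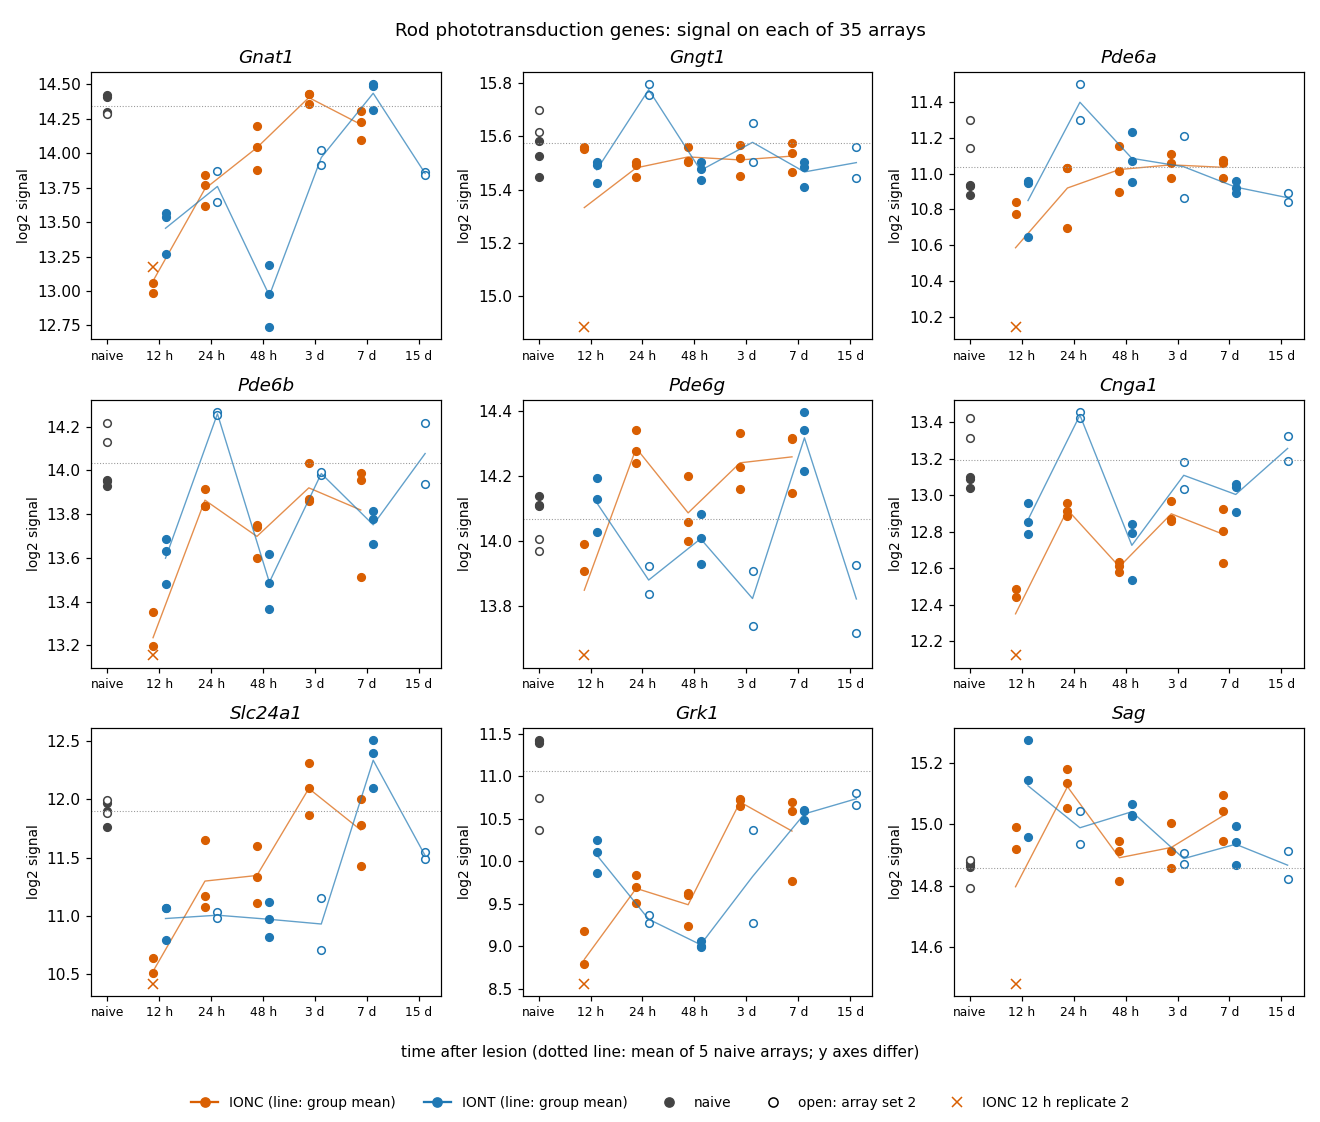
Log2 signal of each gene on each array (y, scales differ by panel) against time after lesion (x, naive at the left), with IONC in orange, IONT in blue and naive in grey. Open circles are the 8 arrays of array set 2, the cross is IONC 12 h replicate 2 and lines join group means. Gnat1, Slc24a1 and Grk1 are low at 12 h and higher again at 7 d, while the group means of Gngt1, Pde6g and Sag span 0.33 to 0.50.

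Phosphodiesterase 6 is built of alpha and beta catalytic subunits, from Pde6a and Pde6b, and of the inhibitory gamma subunit from Pde6g. Pde6b alone was called. It had 13.20, 13.15 and 13.35 at IONC 12 h, against 13.93 to 14.22 in naive retinas, a change of -0.80 ± 0.09 or 1.74-fold lower (adjusted p = 9.53e-07). At IONT it had 13.69, 13.63 and 13.48 at 12 h (-0.44, adjusted p = 0.00215) and 13.62, 13.36 and 13.48 at 48 h (-0.55, adjusted p = 0.000149), all 6 arrays below the 5 naive arrays. By 24 h after IONC the arrays stood at 13.92, 13.84 and 13.84, still below the naive arrays (-0.17, adjusted p = 0.351, not called). At 48 h after IONC the change of Pde6b was -0.34 (adjusted p = 0.0161), and it passed without IONC 7 d replicate 1 (0.003) but was -0.25 against naive replicates 1 to 3 (0.249). Against naive replicates 1 to 3 the fall at IONT 48 h stayed called (-0.46, adjusted p = 0.00706) and that at IONT 12 h did not (-0.35, adjusted p = 0.0896). The Pde6b call at IONT 12 h was also lost without naive replicate 4 (-0.41, adjusted p = 0.0117), without naive replicate 5 (-0.39, adjusted p = 0.0167) or without IONT 12 h replicate 3 (-0.38, adjusted p = 0.0277).

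Pde6a had 10.84, 10.14 and 10.77 at IONC 12 h, against 10.88 to 11.30 in naive retinas, so all 3 arrays were below the naive range. By rank, the 10.14 of IONC 12 h replicate 2 was at 870, within the naive ranks of 705 to 1078. The other IONC 12 h arrays ranked it at 1097 and 1160. The change of -0.45 missed the threshold (adjusted p = 0.0101), was called at -0.58 without IONC 12 h replicate 1 (adjusted p = 0.00211), and was -0.23 without IONC 12 h replicate 2 (adjusted p = 0.143) and -0.33 against naive replicates 1 to 3 (adjusted p = 0.0848). Its other 10 changes lay between -0.35 (IONT 15 d) and 0.18 (IONT 24 h). Pde6g had 13.99, 13.65 and 13.91 at IONC 12 h, against 13.97 to 14.14 in naive retinas (-0.22, adjusted p = 0.0369, and -0.12 without IONC 12 h replicate 2). At 7 d after IONT its arrays, at 14.22, 14.34 and 14.40, were all above the naive arrays, but the change of 0.25 was not called (adjusted p = 0.0351). The 95% intervals at IONT 48 h were -0.20 to 0.30 for Pde6a and -0.21 to 0.10 for Pde6g.

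Cnga1 encodes the alpha subunit of the rod cGMP-gated channel, which carries the current that light interrupts. It had 12.49, 12.12 and 12.44 at IONC 12 h, against 13.04 to 13.42 in naive retinas, with every injured array below the lowest naive array. The change was -0.84 ± 0.08, 1.79-fold lower (adjusted p = 1.08e-07). It was still lower at 48 h after IONC, at 12.61, 12.63 and 12.58 (-0.59, adjusted p = 3.17e-05), and after IONT it was called at 48 h alone, at 12.79, 12.54 and 12.84 (-0.47, adjusted p = 0.000278).

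Cnga1 was the only gene of the 9 called at 7 d after IONC, at 12.63, 12.80 and 12.92 (-0.41, adjusted p = 0.00193), where all 3 arrays were below all naive arrays. That call rested on few arrays. It was lost against naive replicates 1 to 3 (-0.29, adjusted p = 0.169), without naive replicate 4 (-0.35, adjusted p = 0.0246), without naive replicate 5 (-0.38, adjusted p = 0.0128) and without IONC 7 d replicate 1 (-0.33, adjusted p = 0.0375). The Cnga1 fall at IONT 48 h was -0.35 against naive replicates 1 to 3 (adjusted p = 0.0266), while that at IONC 48 h held (-0.47, adjusted p = 0.00335). Naive replicates 4 and 5 were higher than naive replicates 1 to 3 by 0.29 for Cnga1. At IONT 12 h Cnga1 had 12.96, 12.85 and 12.79 (-0.33, adjusted p = 0.0108), and that change passed without IONC 12 h replicate 2 (adjusted p = 0.000848), without IONT 48 h replicate 2 (0.00653) or without IONC 7 d replicate 1 (0.00823). This change of Cnga1 was -0.21 against naive replicates 1 to 3 (adjusted p = 0.491). At 3 d after IONC its change of -0.29 (adjusted p = 0.0252) passed without IONC 12 h replicate 2 (0.00197) and was -0.18 against naive replicates 1 to 3 (0.689).

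Slc24a1, the sodium-calcium, potassium exchanger of the rod outer segment, fell early after both lesions. It had 10.64, 10.42 and 10.51 at IONC 12 h, against 11.76 to 11.99 in naive retinas, a change of -1.37 ± 0.15 or 2.59-fold lower (adjusted p = 5.36e-07). After IONT it stood at 11.07, 11.07 and 10.79 at 12 h (-0.92, adjusted p = 0.00015), 11.03 and 10.98 at 24 h (-0.93, adjusted p = 0.0122, not called), 10.97, 10.82 and 11.12 at 48 h (-0.93, adjusted p = 0.000106) and 10.71 and 11.15 at 3 d (-1.01, adjusted p = 0.00583). All of these arrays were below the lowest naive array. At IONT 24 h and 3 d, 23.6% and 37.2% of all probe sets lay below naive replicates 4 and 5. At 7 d after IONT the arrays, at 12.10, 12.40 and 12.51, were all above the naive arrays (0.44, adjusted p = 0.0668, not called).

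The 3 d IONT call of Slc24a1 was lost without naive replicate 4 (-0.95, adjusted p = 0.0916), naive replicate 5 (-1.06, adjusted p = 0.0223) or IONT 3 d replicate 1 (-0.79, adjusted p = 0.103). Its 24 h IONT change was called without IONC 12 h replicate 2 (adjusted p = 0.00663), without either IONT 3 d array (0.00875 each), without IONC 24 h replicate 1 (0.00711) or without IONC 7 d replicate 1 (0.00855). After IONC it missed the threshold at 24 h, with 11.65, 11.17 and 11.08 (-0.60, adjusted p = 0.0103), and at 48 h, with 11.11, 11.33 and 11.60 (-0.55, adjusted p = 0.0167). All 6 arrays were below the naive arrays, and the 24 h change of Slc24a1 was called without IONC 24 h replicate 1 (-0.78, adjusted p = 0.00273), IONC 48 h replicate 3 (0.00882) or IONC 7 d replicate 1 (0.0071) or 3 (0.00867). At 3 d after IONC Slc24a1 had 12.10, 12.31 and 11.87 (0.19, adjusted p = 0.554), which overlapped naive.

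Grk1, rhodopsin kinase, which marks active rhodopsin for shut-off, had the largest falls of the 9 genes. Its signals were 9.18, 8.56 and 8.80 at IONC 12 h and 8.99 to 9.07 at IONT 48 h, against 11.38, 11.41, 11.42, 10.36 and 10.74 in naive replicates 1 to 5. All 6 injured arrays lay below the lowest naive array. The changes were -2.22 ± 0.19 at IONC 12 h, 4.65-fold lower (adjusted p = 2.88e-08), and -2.04 ± 0.19 at IONT 48 h, 4.13-fold lower (adjusted p = 1.16e-07). It was also called at IONT 12 h (9.87, 10.25 and 10.10, change -0.99, adjusted p = 0.00145), IONC 24 h (9.84, 9.51 and 9.69, -1.38, adjusted p = 3.99e-05) and IONC 48 h (9.23, 9.63 and 9.60, -1.57, adjusted p = 8.31e-06).

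The naive level of Grk1 differed between the array sets, with naive replicates 4 and 5 lower than naive replicates 1 to 3 by 0.86. The SE of its changes from all 5 naive arrays does not include this difference. Against naive replicates 1 to 3 its falls were larger, at -2.56 at IONC 12 h, -2.39 at IONT 48 h and -1.33 at IONT 12 h. At 24 h after IONT the arrays stood at 9.27 and 9.37 (-1.23 from naive replicates 4 and 5, adjusted p = 0.0122), at 3 d at 9.27 and 10.37 (-0.73, adjusted p = 0.21) and at 15 d at 10.80 and 10.66 (0.18, adjusted p = 0.931). At 3 d and 7 d after IONC and 7 d after IONT Grk1 ran from 9.77 to 10.73, all below naive replicates 1 to 3 and none called (changes of -0.71, -1.05 and -0.85 from those 3 arrays). At IONT 12 h its call was lost without IONT 12 h replicate 1 (-0.89, adjusted p = 0.02). The 24 h IONT change of Grk1 was called without either IONT 3 d array (adjusted p = 0.00182 each), without IONC 12 h replicate 1 (0.00988) or 2 (0.00561), or without IONC 7 d replicate 1 (0.00349). The 3 d IONT change was called without IONT 3 d replicate 2 (-1.28, adjusted p = 0.00829), and the 7 d IONC change of -0.71 (adjusted p = 0.0255) without either IONT 3 d array (0.00583 each).

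Sag encodes rod arrestin, which binds phosphorylated rhodopsin and ends its signal. It had 14.99, 14.48 and 14.92 at IONC 12 h and 15.03, 15.03 and 15.06 at IONT 48 h, against 14.79 to 14.88 in naive retinas. Apart from IONC 12 h replicate 2, which was the lowest of all 35 arrays, the arrays of these groups were above the naive range. By rank, Sag stood at 2 on IONC 12 h replicate 2, against 5 to 7 on the naive arrays. Its highest groups were IONT 12 h, at 15.27, 15.14 and 14.96 (change 0.27, adjusted p = 0.0484), and IONC 24 h, at 15.05, 15.13 and 15.18 (0.27, adjusted p = 0.0513). Neither was called, and both passed when IONC 12 h replicate 2 was left out (adjusted p = 0.00101 at IONT 12 h and 0.00112 at IONC 24 h for Sag). Its 95% interval at IONT 48 h was 0.01 to 0.36.

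IONC and IONT were compared directly to ask whether the rod transcripts differed between the lesions, which differ in type and in distance from the optic disc. At 12 h, 2 of 9 genes differed (1.32% of all probe sets were called in either direction), and both were lower after IONC. The difference was -1.23 ± 0.22 for Grk1 (adjusted p = 0.00185) and -0.52 ± 0.09 for Cnga1 (adjusted p = 0.0017). For Grk1 the IONC arrays at 8.56 to 9.18 did not overlap the IONT arrays at 9.87 to 10.25. Its call was lost without IONC 12 h replicate 2 (-1.08, adjusted p = 0.0135), IONT 12 h replicate 2 (-1.14, adjusted p = 0.0185) or IONT 12 h replicate 3 (-1.21, adjusted p = 0.0115). The call of Cnga1 was lost without IONT 12 h replicate 1 (-0.47, adjusted p = 0.0112) or 2 (-0.52, adjusted p = 0.0108). Sag was called lower after IONC at 12 h when IONC 12 h replicate 1 was left out (-0.43, adjusted p = 0.00493).

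At 48 h, 1 of 9 differed (0.145% of all probe sets). Gnat1 had 13.88, 14.20 and 14.05 after IONC and 13.19, 12.74 and 12.98 after IONT, with no overlap, and was 1.07 ± 0.10 higher after IONC, or 2.1-fold (adjusted p = 9.75e-06). This held with each array left out in turn. The 95% intervals of the other 8 genes at 48 h lay within -0.34 and 0.92. At 7 d, 0 of 9 were called (0.0548%), with differences from -0.60 for Slc24a1 (95% interval -0.94 to -0.26) to 0.11 for Pde6a.

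At 24 h and 3 d the lesions lie in different array sets, so their changes from their own naive arrays were compared. No gene was called at 24 h (0 of 9, 0.235% of all probe sets), with differences between -0.49 for Grk1 and 0.35 for Slc24a1. None was called at 3 d either (0 of 9, 0.126%). Both comparisons rest on 2 injured and 2 naive arrays on the IONT side. A count of 0 here does not show that the lesions were alike. Slc24a1 had the largest difference, 1.22 ± 0.26 higher after IONC (adjusted p = 0.0288), with arrays at 12.10, 12.31 and 11.87 after IONC and 10.71 and 11.15 after IONT.

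**Figure D3:**
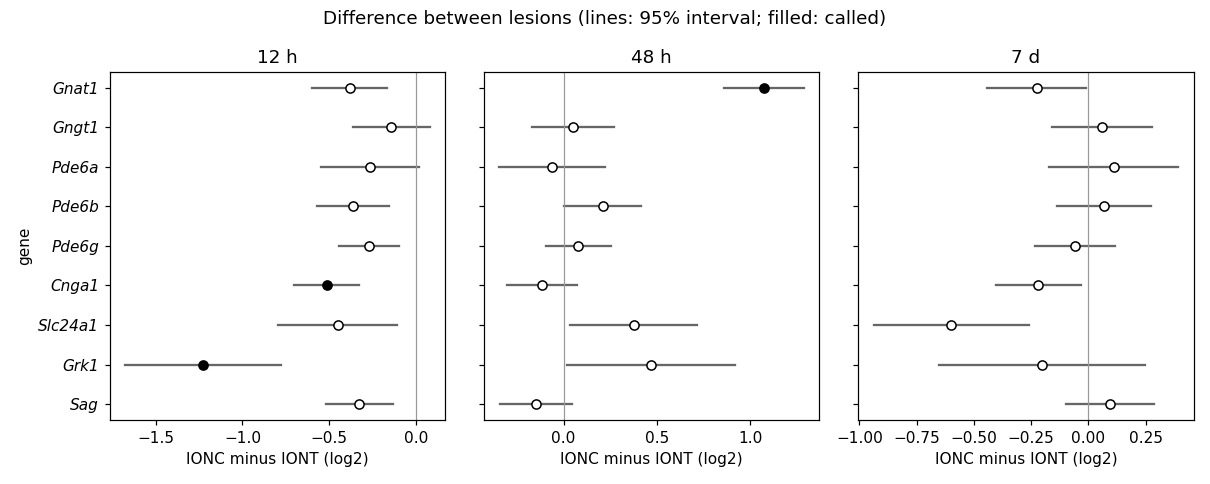
IONC minus IONT log2 difference of each gene (down) at 12 h, 48 h and 7 d, with the 95% interval of the difference as a line and a filled point where it was called. Cnga1 and Grk1 are filled left of 0 at 12 h, and Gnat1 is filled at 1.07 at 48 h.

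Time points of 1 lesion and 1 array set were compared to see whether the levels moved back. Between 48 h and 7 d after IONT, 3 of 9 genes rose (0.705% of all probe sets were called in either direction). At 7 d Gnat1 was 1.47 ± 0.10 higher than at 48 h (2.77-fold, adjusted p = 1.62e-08), Grk1 1.54 ± 0.22 higher (adjusted p = 0.000143) and Slc24a1 1.36 ± 0.16 higher (adjusted p = 1.6e-05). The 7 d arrays of each did not overlap its 48 h arrays. Cnga1 and Pde6b were 0.28 and 0.26 higher at 7 d, without a call (adjusted p = 0.19 and 0.342). Pde6g was 0.31 higher at 7 d (adjusted p = 0.0686) and was called without IONC 12 h replicate 2 (0.00634). Between 12 h and 48 h after IONT 0 of 9 were called (0.2%), although Grk1 was 1.05 lower at 48 h (adjusted p = 0.0235) and Gnat1 0.49 lower (adjusted p = 0.0284). Left out in turn, IONC 12 h replicate 2, IONC 7 d replicate 1 and either IONT 3 d array gave a call for Grk1 here (adjusted p = 0.00462 to 0.00624), and IONC 12 h replicate 2 one for Gnat1 (0.00666).

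After IONC, 3 of 9 genes were higher at 24 h than at 12 h (0.116% of all probe sets). The differences were 0.67 ± 0.10 for Gnat1 (adjusted p = 0.00281), 0.63 ± 0.10 for Pde6b (adjusted p = 0.00294) and 0.57 ± 0.09 for Cnga1 (adjusted p = 0.00294). The arrays of the 3 called genes did not overlap. All 9 differences were above 0, but without IONC 12 h replicate 2 that of Gngt1 was -0.08. These calls were sensitive to the arrays used. Without IONC 24 h replicate 1 the values were 0.62 for Gnat1, 0.60 for Pde6b and 0.55 for Cnga1 (adjusted p = 0.0308 each), without IONC 24 h replicate 3 they were 0.65, 0.64 and 0.59 (0.0194, 0.0177 and 0.0172), and in both cases 0 were called. Without IONC 24 h replicate 2, Pde6b (0.64, adjusted p = 0.0143) and Cnga1 (0.57, adjusted p = 0.0154) lost the call, and without IONC 12 h replicate 2, Pde6b did (0.59, adjusted p = 0.012). Pde6g, 0.44 higher at 24 h (adjusted p = 0.0147), was called without IONC 12 h replicate 1 (0.51) or 3 (0.47). Between 24 h and 7 d after IONC 0 of 9 were called (0.0838%).

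Between 24 h and 15 d after IONT, 1 of 9 genes was called (1.89% of all probe sets). Grk1 was 1.42 ± 0.27 higher at 15 d (10.80 and 10.66) than at 24 h (9.27 and 9.37), with an adjusted p of 0.00192. Each of these 4 arrays decided the call of Grk1, which was lost when any of them was left out (1.35 to 1.49, adjusted p = 0.0105 to 0.0279). Without IONC 12 h replicate 2, Gngt1 (-0.27, adjusted p = 0.00146) and Pde6a (-0.53, adjusted p = 0.00521) were called lower at 15 d as well.

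In the order of the 12 group means, which mixes the array sets, IONC 12 h was the lowest group for 7 of the 9 genes, but for 5 of the 9 without IONC 12 h replicate 2, when IONT 7 d was lowest for Gngt1 and naive for Sag. For Gnat1 the lowest was IONT 48 h, which overlapped the next group, IONC 12 h, and for Pde6g it was IONT 15 d. Naive was the highest group for Grk1, IONT 7 d for Gnat1, Slc24a1 and Pde6g, IONT 24 h for Gngt1, Pde6a, Pde6b and Cnga1, and IONT 12 h for Sag. Naive replicates 4 and 5, of the array set of IONT 24 h, were themselves higher than naive replicates 1 to 3 by 0.14 for Gngt1, 0.30 for Pde6a, 0.23 for Pde6b and 0.29 for Cnga1, and from them the IONT 24 h changes of these genes were 0.07 to 0.18, none called. As changes from the naive arrays of the own set, IONC 12 h was again lowest for 7 of 9 genes (5 of 9 without replicate 2), but the lowest was IONT 15 d for Pde6a and IONC 12 h for Pde6g. The span from the lowest to the highest mean was 2.22 for Grk1, 1.81 for Slc24a1, 1.47 for Gnat1, 1.09 for Cnga1 and 1.02 for Pde6b, and 0.33 to 0.81 for the remaining 4. Most neighbours in this order overlapped, between 8 of 11 pairs for Gnat1 and 11 of 11 for Sag.

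Other genes of the rod light response were counted from a list of 16, of which 14 were measured. At IONC 12 h 9 of 14 were called lower and 1 higher, at IONT 48 h 7 lower and 0 higher, and at IONT 12 h 5 lower and 1 higher. For this list and those below, 5.86% of all probe sets were called lower and 1.9% higher at IONC 12 h. The shares were 2.96% and 2.4% at IONT 48 h, and 2.11% and 1.89% at IONT 12 h. Against naive replicates 1 to 3 the counts were 10 lower at IONC 12 h, 7 at IONT 48 h and 2 at IONT 12 h, with none higher. Their median change was -0.60 at IONC 12 h and -0.58 at IONT 48 h. For this list and those below, counts and medians at IONC 12 h include IONC 12 h replicate 2. They were not computed without it. Rgs9, which with its partner Gnb5 speeds the shut-off of transducin, was lower at IONC 12 h (-1.31) and Gucy2d, a guanylate cyclase that restores cGMP, was lower at all 5 times after IONC (-0.83 to -1.01). Gucy2d was lower after IONT at 12 h, 48 h and 7 d too (-0.98 to -1.06). None of these 8 falls of Gucy2d was called against naive replicates 1 to 3 (-0.55 to -0.78), while the fall of Rgs9 was (-0.97). Gucy2f, the partner cyclase, was not called in any of the 11 comparisons. Its signals on the injured arrays of array set 1 were only 2.31 to 3.04, under the 4 of the low-value filter, so a fall could hardly be seen.

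Gnb1, the beta subunit shared by rod transducin, depended on the array set. It ran from 12.37 to 13.05 on the IONT 24 h, 3 d and 15 d arrays and from 14.29 to 15.01 on the other injured arrays, and from 12.92 to 14.96 in naive retinas. Set against all 5 naive arrays Gnb1 appeared higher in 7 of the 8 groups of array set 1, by 0.34 at IONC 12 h, 0.70 to 0.81 at the other IONC times, 0.53 at IONT 12 h and 0.74 at IONT 7 d, all called. Set against naive replicates 1 to 3 it changed by -0.45 at IONC 12 h and -0.48 at IONT 48 h, both called, and the other 6 changes lay between -0.26 (IONT 12 h) and 0.02 without a call. Its fall of -0.57 at IONT 3 d was measured from the naive arrays of its own set.

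Picked after their values were seen, Cngb1, the beta subunit of the rod channel, Rcvrn, recoverin, a calcium sensor that restrains Grk1, and Gnb5 were called lower too. Cngb1 changed by -0.83 at IONC 12 h and -0.87 at IONT 12 h. Rcvrn changed by -0.56 at IONC 12 h, -0.87 at IONT 12 h and -0.67 at IONT 48 h. Gnb5 changed by -0.80 at IONT 48 h, and by -0.97 at IONC 12 h as set against naive replicates 1 to 3. These calls of Cngb1, Rcvrn and Gnb5 held against naive replicates 1 to 3.

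Among 11 measured genes of the rod disc and outer segment, 8 were called lower and 1 higher at IONC 12 h, and 4 lower and 1 higher at IONT 48 h. Their median changes were -0.65 at IONC 12 h and -0.48 at IONT 48 h. Against naive replicates 1 to 3 the counts were 6 lower and 1 higher at IONC 12 h, and 3 lower and 2 higher at IONT 48 h. Reep6, which helps membrane proteins reach the rod surface, changed by -2.01 at IONC 12 h, -2.54 at IONT 12 h and -1.82 at IONT 48 h, Abca4, the disc retinal transporter, by -1.06 at IONC 12 h and Rp1l1, a protein of the outer segment axoneme, by -1.02 at IONC 12 h. Fscn2, an actin bundler of photoreceptors, went the other way, higher by 0.97 at IONC 12 h, 1.79 at IONT 12 h and 1.02 at IONT 48 h.

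Of 7 measured transcription factors of photoreceptors, 4 were called lower at IONC 12 h and 2 at IONT 48 h, with none higher, and the counts were the same against naive replicates 1 to 3. Crx, whose motif is shown above in the Pde6a promoter, changed by -1.04 at IONC 12 h and -0.68 at IONT 48 h, Otx2 by -0.78 at IONC 12 h, and Esrrb, an orphan nuclear receptor of rods, by -3.15 at IONC 12 h and -2.67 at IONT 48 h. Rorb was higher at IONT 7 d (2.74). Of 9 measured retinoid cycle genes 4 were lower at IONC 12 h and 3 at IONT 48 h, and against naive replicates 1 to 3 these counts were 3 and 2. Rdh12, which reduces retinal, changed by -1.31 at IONC 12 h and -0.98 at IONT 48 h. Rlbp1, a retinal carrier of glia and pigment epithelium, changed by -0.98 at IONC 12 h. Lrat was not called in any comparison, but its group means were only 2.51 to 3.40, so a fall could hardly be seen. Rbp3, the retinoid carrier between photoreceptors and pigment epithelium, was called higher in 5 comparisons by 2.33 to 2.91, none of which held against naive replicates 1 to 3 (-0.06 to 0.52).

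Cone transduction genes were also low in part. Of 10 measured, 3 were called lower and 1 higher at IONC 12 h, and 2 lower and 1 higher at IONT 48 h. Against naive replicates 1 to 3 these counts were 3 lower and 1 higher, and 1 lower and 1 higher. Opn1sw, the short-wavelength cone opsin, changed by -4.09 at IONC 12 h, -3.62 at IONT 12 h and -2.91 at IONT 48 h. Arr3, cone arrestin, changed by -1.34 at IONC 48 h and -1.48 at IONC 3 d, neither called against naive replicates 1 to 3, and Slc24a2, the cone exchanger, was not called in any comparison. Gnb3, the cone transducin beta subunit, was higher by 1.37 at IONC 12 h and 1.96 at IONT 48 h.

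**Figure D4:**
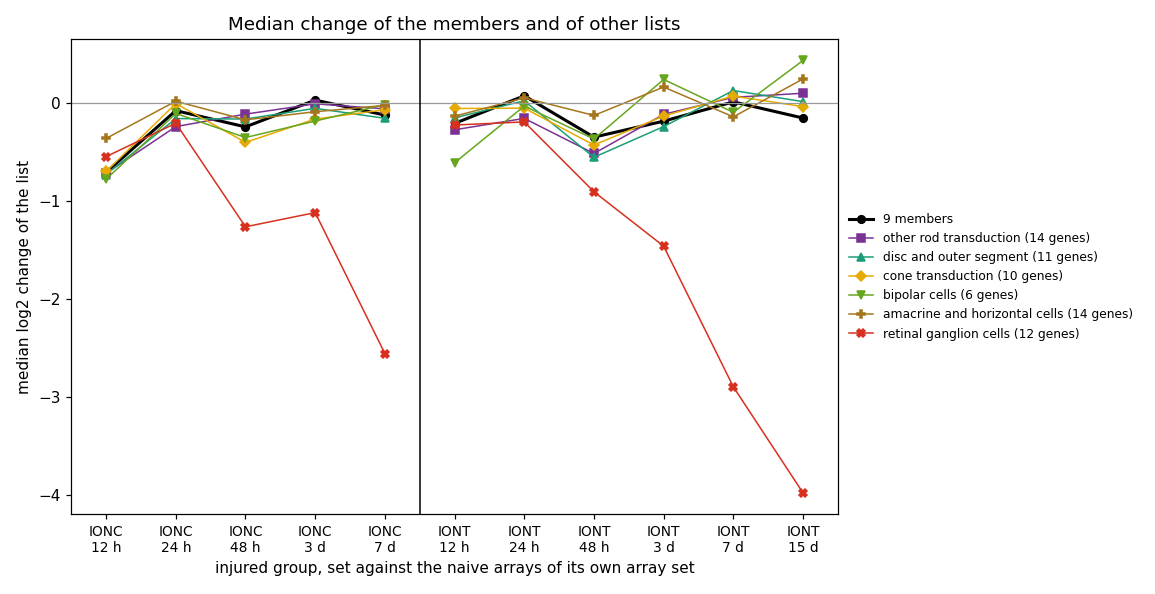
Median log2 change (y) of the 9 genes and of lists of other retinal genes in the 11 injured groups (x), with naive replicates 1 to 3 or 4 and 5 as the baseline, whichever share the array set. At IONC 12 h the rod, disc, cone and bipolar medians are -0.78 to -0.70, the ganglion cell median -0.55 and the amacrine and horizontal cell median -0.36. The bipolar median, of 6 genes, is -0.43 there against all 5 naive arrays. All IONC 12 h medians include IONC 12 h replicate 2 and were not computed without it. The retinal ganglion cell median drops to -3.98 at IONT 15 d, where the median of the 9 genes is -0.16.

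Markers of some other cells were called at the same times, and those of others were not. Of all probe sets, 5.86% were called lower and 1.9% higher at IONC 12 h. At IONT 48 h 2.96% were called lower and 2.4% higher, and at IONT 15 d 0.341% were called lower. Of 12 measured ganglion cell genes, 0 were called lower at IONC 12 h, 4 at IONT 48 h and 9 at IONT 15 d, when 0 of the 9 rod genes were called. Of 6 bipolar genes 0 were called at IONC 12 h or IONT 48 h, but against naive replicates 1 to 3 1 was lower in each, and of 14 amacrine and horizontal cell genes 0 were called with either set of naive arrays. The IONC 12 h arrays, replicate 2 among them, were far apart for some lists. The mean log2 signal of the bipolar genes ran from 7.32 to 9.22 there, against 8.86 to 9.51 in naive retinas. For the ganglion cell genes it ran from 7.65 to 8.63, against 8.67 to 8.76. Of 11 microglia and macrophage genes 3 were higher at IONC 12 h and 4 at IONT 48 h, with a log2 summed signal of 8.59 to 10.52 at IONC 12 h and 9.41 to 9.61 at IONT 48 h, against 7.71 to 7.97 in naive retinas. Of 11 pigment epithelium genes 1, Rpe65, was lower at IONC 12 h (-2.48, and -1.93 without a call against naive replicates 1 to 3), where their log2 summed signal was 10.60 to 11.78, against 11.47 to 12.68 in naive retinas, and 0 were called at IONT 48 h, where it was 12.41 to 13.33. Of 11 Müller glia and astrocyte genes 2 were higher and 3 lower at both IONC 12 h and IONT 48 h (against naive replicates 1 to 3, 1 was lower at IONT 48 h), with Gfap, the intermediate filament of reactive glia, higher by 3.38 and 4.16. Of 11 lens genes 0 were called at IONC 12 h or IONT 48 h and 8 were lower at IONT 15 d. The part of these markers in the rod results was not tested.

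The 10 genes whose 11 changes most resembled the median change of the 9 rod genes, among 7719 others with a mean log2 signal of at least 6, were Herc3 (Pearson r = 0.96), Lrig1 (0.94), Tmco3 (0.94), Oip5-as1 (0.93), Prph2 (0.93), Acsl1 (0.93), Katnbl1 (0.93), Sos1 (0.93), Slmap (0.92) and Laptm4b (0.92). Prph2 encodes peripherin 2, which shapes the rim of the rod disc. With each group set against its own naive arrays, r for these 10 genes lay between 0.881 (Acsl1) and 0.945 (Oip5-as1 and Herc3). Pearson r compares the shape of the 11 changes and not their size or sign, so a listed gene need not have fallen. Lrig1 changed by 0.14 at IONT 12 h and 0.02 at IONT 48 h, where the medians of the 9 genes were -0.33 and -0.47. The 11 changes share naive arrays, so these values describe likeness only.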

How the data were processed

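The authors made the values with GCRMA, which corrects background, normalizes by quantiles and summarizes probes, and deposited log2 signals per probe set, used here as given. No source used here gives the version of GCRMA or says if the 35 arrays were normalized as one batch. Of 31099 probe sets, 57 controls were left out. Genes were named from the platform annotation of GEO, with 20826 probe sets of 1 symbol, 436 of several and 9780 of none. The 9 genes, the gene lists and the tests were chosen with earlier results of these data known.

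Groups were fitted with limma 3.58.1 in R 4.3.3, in 1 model over all 35 arrays with a coefficient for each injured group, for naive replicates 1 to 3 and for naive replicates 4 and 5. P-values were adjusted by Benjamini-Hochberg over 31042 probe sets within a comparison, at the thresholds of the study's methods. The fit and its calls were first tested on simulated data. The number of arrays, 2 to 5 per group, limits the precision. In each list, up to 4 genes with the largest absolute median change over the 11 comparisons were named.

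Alternatives were other naive references and fits, thresholds, a filter (log2 signal over 4 in at least 2 arrays, 18274 probe sets), array weights, trend and robust moderation, median centring, cyclic loess, a replicate block and each array left out. Chosen after seeing the data were normal scores of ranks within an array, and naive replicates 1 to 3 with IONC 12 h replicate 2 left out, and the order of groups without that array or as changes within each array set.

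Same-numbered arrays of array set 1 had a median correlation of 0.02 between their deviations from group means (108 pairs), against -0.01 for different numbers (216 pairs). Of 27 arrays, 14 correlated best on average with arrays of their own number. The main fit did not take the numbers as pairs, and the replicate block among the alternatives did.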

Additional observations from a re-analysis of the deposited data

Results flagged for a closer look

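Among the 5 naive arrays, Sag on naive replicate 4 (14.79) stood apart below the other 4 (14.86 to 14.88), with a gap of 0.767 of the whole range. Such a gap turns up by chance in about 1 in 20 groups of this size. The difference between the lesions themselves passed the test for Grk1 at 12 h (IONC minus IONT, -1.23) and for Cnga1 at 12 h (-0.52), both lower after IONC, and for Gnat1 at 48 h (1.07), higher after IONC.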

How the results depend on the processing

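No called change of the 9 genes reversed under any alternative. Of 30 called changes, 93 of 1498 refits lost the call, and of those not called, 109 of 7880 gained one. These shares do not measure how firm a call is. In each comparison 35 of the refits left out 1 array, mostly of a group outside the comparison. Such a refit leaves the log2 change as it was and alters only the shared spread. The 2 alternatives on the choice of probe set were not run, since each gene had 1. Counts of the 9 genes called are given here where they moved. The share of all probe sets called moves with the setting too and is not given beside them. These counts therefore show how the calls depend on the processing and nothing particular to the 9 genes. With naive replicates 1 to 3, IONC 7 d had 0. With all 5 naive arrays and no array set, IONT 24 h had 3, IONT 3 d 2, IONT 15 d 1 and IONC 7 d 0, the lesions differed for 1 gene at 12 h, 2 at 24 h and 2 at 3 d, and IONT 15 d against 24 h had 0. At an adjusted p under 0.05 without B, IONT 24 h had 3, IONT 7 d 1, IONC 24 h 4, IONC 48 h 5, IONC 3 d 1 and IONC 7 d 2, the lesions differed for 5 at 12 h and 1 at 3 d, IONT 48 h against 12 h had 2 and IONC 24 h against 12 h 5. At 1.5-fold, IONT 48 h had 3, IONC 7 d 0, the lesions at 12 h 1 and any time after IONT 3. With the filter, which leaves 18274 probe sets, IONC 7 d and IONC 24 h against 12 h had 0. With array weights, IONT 24 h had 2, IONT 3 d 0, IONC 3 d 1, IONC 7 d 2, IONT 48 h against 12 h 2 and IONC 24 h against 12 h 5. With each array set alone, IONT 48 h had 3, IONT 3 d 0, IONT 48 h against 12 h 1, IONT 15 d against 24 h 0 and any time after IONT 3. With each pair of groups alone, IONT 3 d had 0, IONC 12 h 3, IONC 3 d 1, IONC 7 d 0, the lesions at 12 h and 48 h 0, IONT 7 d against 48 h 1, and IONT 15 d against 24 h and IONC 24 h against 12 h 0. Centring moved the median of all probe sets by over 0.1, to -0.14 at IONT 24 h, -0.17 at IONT 3 d and -0.25 at IONT 15 d, and called 3 genes at IONT 24 h and 1 at IONT 15 d. With cyclic loess, IONT 3 d had 0, IONT 7 d 1, and the lesions at 12 h and IONC 24 h against 12 h 0. With a replicate block in array set 1, IONT 48 h had 3, IONC 48 h 1 and IONC 24 h against 12 h 0, and 14 of 27 arrays correlated best with their own number. With normal scores, IONT 3 d had 0, IONT 7 d 1, IONC 3 d 1, and the lesions at 12 h and IONC 24 h against 12 h 0. With naive replicates 1 to 3 and without IONC 12 h replicate 2, IONT 24 h had 3, the lesions at 12 h 1, IONT 48 h against 12 h 2 and IONT 15 d against 24 h 3. With each array left out in turn, counts ran from 3 to 5 at IONT 12 h, 0 to 3 at IONT 24 h, 0 to 2 at IONT 3 d, 5 to 6 at IONC 12 h, 2 to 3 at IONC 24 h and IONC 48 h, 0 to 1 at IONC 3 d, 0 to 2 at IONC 7 d, 0 to 3 between lesions at 12 h, 0 to 2 for IONT 48 h against 12 h, 3 to 4 for IONT 7 d against 48 h, 0 to 3 for IONT 15 d against 24 h, 0 to 4 for IONC 24 h against 12 h and 5 to 6 at any time after IONC. With naive replicates 1 to 3 (also with each array set alone, with the replicate block, and without IONC 12 h replicate 2), Gnb1 turned to -0.26 at IONT 12 h, -0.48 at IONT 48 h, -0.048 at IONT 7 d, -0.45 at IONC 12 h (-0.34 without IONC 12 h replicate 2), -0.066 at IONC 24 h, -0.083 at IONC 48 h and -0.0041 at IONC 7 d, and Rbp3 to -0.062 at IONC 24 h. The cause of these moves was not tested beyond what the change of samples, genes or threshold fixes.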
